A study of Mus musculus with 12 samples.

Results

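Livers that carried the AEG1 transgene were compared with livers that did not, whatever their MYC status. The 6 carriers were 3 AEG1_MYC and 3 AEG1 mice, and the 6 non-carriers were 3 MYC and 3 WT mice, which together are all 12 libraries of the series. AEG1 mice carried Alb/AEG-1, MYC mice Alb/c-Myc, AEG1_MYC mice both and WT mice neither. Mice heterozygous for each transgene had been crossed to give these 4 genotypes, and naïve adults were used. Alb names the albumin promoter, which drives expression in hepatocytes, so that the other cells of the liver do not make the transgene product from it. Age, sex, litter and time of collection were not given in the labels.

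Mtdh encodes AEG-1 (astrocyte elevated gene-1, also called metadherin). The protein sits in membranes of the endoplasmic reticulum, in the cytoplasm and in the nucleus, binds the nuclease Snd1, and is known to raise NF-kB activity and to hold back the retinoid X receptor, a partner of nuclear receptors of lipid metabolism. In liver it is studied for its part in tumour formation and fat storage.

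Libraries held 21931197 to 40552316 reads in genes. AEG1_MYC replicates 2 and 1 stood apart from the other 10 libraries, with mean correlations of log2 CPM (read counts scaled to a common library size) of 0.922 and 0.956 to the rest, against 0.968 to 0.972 for the other 10. In AEG1_MYC replicate 2 the Y-linked genes Eif2s3y, Uty and Ddx3y were at 1.69, 1.42 and 3.95 CPM, and Xist, expressed from the inactive X chromosome of females, had 18 reads there and 1 to 28 reads in the other 11 libraries. Mtdh was at 89.0, 95.6 and 113 CPM (lowest, median and highest) in carriers and at 95.6, 99.4 and 101 CPM in non-carriers, so carriers lay on both sides of the non-carriers. Its log2 fold change was -0.02 ± 0.07 (SE, edgeR adjusted p = 0.949). The species of the transgene is not given in the labels, and counts at mouse Mtdh therefore do not check the AEG1 label. Myc was at 73.1, 165 and 58.4 CPM in AEG1_MYC and at 3.93, 3.54 and 4.60 CPM in AEG1 livers, against 23.4, 30.5 and 53.7 CPM in MYC and 4.73, 2.79 and 2.26 CPM in WT livers. Every liver labelled with the MYC transgene was above every liver without it. Every AEG1_MYC liver was also above every MYC liver. The model below takes MYC only as carried or not. Among livers with the MYC transgene, a difference with AEG1 and one with Myc level therefore cannot be told apart. The hepatocyte gene Alb was between 24173 CPM (AEG1_MYC replicate 2) and 92828 CPM (WT replicate 1). The exocrine pancreas genes Prss1, Prss2, Cpa1 and Amy2a5 had 0 reads in all libraries, while Pnlip, Cela3b and Ctrb1 had 1, 4 and 56 reads in all, and Cela1 had 12331 reads, with none of the libraries at 0.

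Across both MYC backgrounds, carriers had more Bnc2, Gpnmb and Apoc2 RNA and less RNA of the interferon-inducible GTPases Igtp, Irgm1 and Ifi47 than non-carriers. The question was which genes differ with AEG1 at either MYC status, and it was asked with a model that holds AEG1 and MYC terms and no interaction. No gene passed: edgeR called 0 of 13511 genes (0% of those tested) at an adjusted p under 0.05, and the smallest adjusted p was 0.0642, that of Bnc2. At an unadjusted p under 0.05 were 1100 genes, 8.14%, with 591 higher (4.37%) and 509 lower (3.77%) in carriers. DESeq2 called 40 genes on the same design (0.297%), 20 in each direction, and limma with library quality weights called 2 (0.0148%), Bnc2 and Apoc2. In 36 genes (0.266%), 18 in each direction, the CPM of the 6 carriers and the 6 non-carriers did not overlap. Of these, 31 had a mean CPM of at least 1 (0.257% of such genes), 14 higher and 17 lower. Some genes separate in this way by chance alone, and the share expected by chance was not computed. Genes named below because their groups do not overlap gain no further support from that lack of overlap. All differences below are log2 fold changes of carriers over non-carriers ± SE unless other groups are named.

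**Figure D1:**
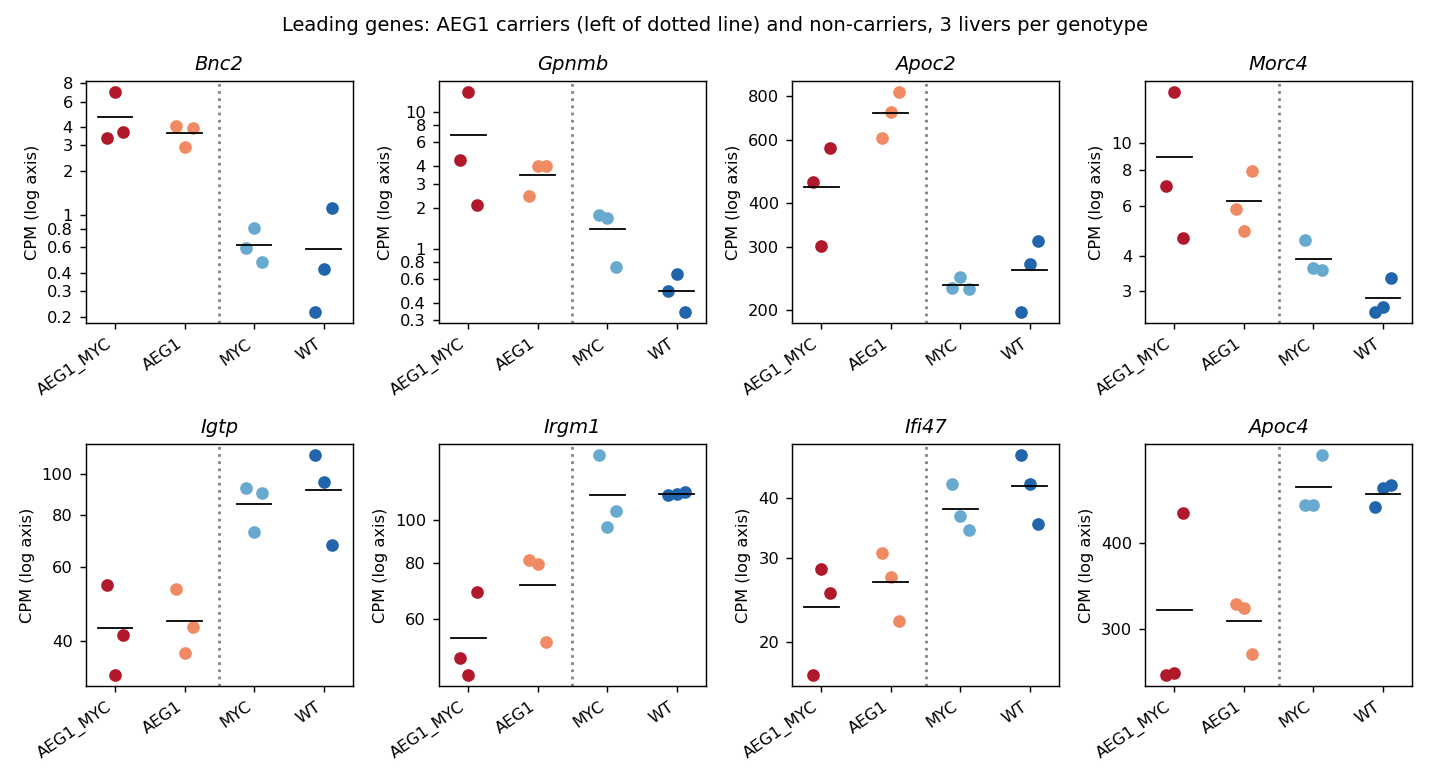
CPM (log axis, scaled to each panel) of 8 genes in each liver, with AEG1_MYC and AEG1 carriers left of the dotted line and MYC and WT non-carriers right of it; points are livers and bars are means of 3. In 7 panels carriers and non-carriers do not overlap, and in Apoc2 the lowest carrier (302 CPM) lies below the highest non-carrier (312 CPM).

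Bnc2, basonuclin 2, is a zinc finger protein known from fibroblasts and other mesenchymal cells. Carriers held it at 2.91, 3.83 and 6.97 CPM (lowest, median and highest) and non-carriers at 0.213, 0.531 and 1.11 CPM. The groups did not overlap, and the highest non-carrier was WT replicate 3 (1.11 CPM). The difference was 2.80 ± 0.35 (edgeR adjusted p = 0.0642), with 2.91 ± 0.51 for AEG1_MYC over MYC and 2.68 ± 0.52 for AEG1 over WT. The nearest tested genes on either side of it on chromosome 4, in the gene order of RefSeq's GRCm38.p6 table, were 4930473A06Rik at -0.40 ± 0.28 and Cntln at 0.25 ± 0.24. Snapc3, 3 places from Bnc2, was at -0.37 ± 0.12 without overlap between the groups. Rraga, 3 places the other way, was at -0.21 ± 0.07 with overlap, and Ttc39b, 4 places away on the side of Snapc3, at 0.24 ± 0.21. Any link of these values to the position of Bnc2 was not tested. DESeq2 (adjusted p = 3.01e-12) and limma (adjusted p = 0.00803) both called Bnc2.

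Gpnmb, a membrane glycoprotein of macrophages and other lysosome-rich cells, was at 2.09, 4.02 and 14.0 CPM in carriers and at 0.342, 0.694 and 1.76 CPM in non-carriers. Here too the groups did not overlap, with AEG1_MYC replicate 2 far above the other carriers. The difference was 2.53 ± 0.44 (edgeR adjusted p = 0.304), and 2.06 without that library. Clec7a, the beta-glucan receptor dectin-1 of myeloid cells, was at 8.05 to 18.2 CPM in carriers and at 4.18 to 7.80 CPM in non-carriers (0.89 ± 0.24, edgeR adjusted p = 0.607).

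Macrophage and stellate cell markers were read beside these genes. The 20 Kupffer cell and macrophage markers had a median log2 fold change of 0.29, with 17 of 20 above 0 and 0 of 20 at an unadjusted p under 0.05. Their summed level was 426 to 1889.7 CPM in carriers and 427 to 1161 CPM in non-carriers. Without AEG1_MYC replicate 1 the median was -0.09. The 20 stellate cell and fibroblast markers had a median of -0.13 and summed to 447 to 1031 CPM in carriers and 575 to 824 CPM in non-carriers. Their median was -0.52 in AEG1_MYC over MYC (17 of 20 below 0, against 48.4% of all genes) and 0.34 in AEG1 over WT (3 of 20 below 0, against 50.3%), and without AEG1_MYC replicates 1 and 2 the median over all carriers was 0.13. None of the markers of either list was at 0 in any library. The part of these cells in the Bnc2, Gpnmb and Clec7a values was not tested. In whole liver, more cells of a type and more RNA per cell cannot be told apart.

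Of the other genes higher in every carrier, Morc4, a chromatin ATPase, was at 4.62, 6.45 and 15.0 CPM in carriers and at 2.53, 3.44 and 4.56 CPM in non-carriers. The lowest carrier was just above the highest non-carrier (1.17 ± 0.25, edgeR adjusted p = 0.596). Tead2, a transcription factor of the Hippo pathway, had 0.62 ± 0.19, and Hnmt, which methylates histamine, 0.39 ± 0.11. Smaller differences of 0.26 to 0.37 stood in Becn1 of autophagy, Ccdc45, the myosin light chain Myl12b, the phosphatase inhibitor Arpp19 and Tmem134. For Becn1 the carriers' lowest and the non-carriers' highest value were both 63.3 CPM after rounding, and without AEG1_MYC replicate 2 its difference was 0.20 and that of Arpp19 0.17.

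Apoc2 and Apoc4, neighbours in the apolipoprotein cluster of chromosome 7, had differences of opposite sign. Apoc2, the activator of lipoprotein lipase, was at 302, 591 and 821 CPM in carriers and at 196, 238 and 312 CPM in non-carriers. Only AEG1_MYC replicate 2 (302 CPM) was below a non-carrier, WT replicate 3 (312 CPM). The difference was 1.19 ± 0.18 (edgeR adjusted p = 0.126), with 0.92 ± 0.23 for AEG1_MYC over MYC and 1.47 ± 0.24 for AEG1 over WT. Apoc4, a minor apolipoprotein of very low density lipoprotein, was at 258, 299 and 441 CPM in carriers and at 449, 466 and 536 CPM in non-carriers. Carriers lay below non-carriers throughout, by a small margin at AEG1_MYC replicate 3 (-0.60 ± 0.13, edgeR adjusted p = 0.596). The next genes of the cluster, Apoc1 (0.09 ± 0.12) and Apoe (0.05 ± 0.13), were at 1879.6 to 2936 and 10861 to 18786 CPM in carriers and at 2068 to 2389 and 13316 to 16954 CPM in non-carriers. Reads of overlapping transcripts of these genes cannot be told apart in these counts.

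The immunity-related GTPases are interferon-inducible proteins that act on vacuoles of intracellular parasites, bacteria and lipid droplets, and interferon gamma is their main inducer. Several lie in 2 clusters of mouse chromosome 11, with Gm12250, Igtp and Irgm2 side by side in 1 and Irgm1 and Ifi47 in the other. Genes that interferon gamma induces often hold the GAS motif, and those that type I interferon induces the ISRE motif, which a complex with IRF9 binds. Promoters of 3 of these genes are shown because they hold matches to those motifs near the start of transcription. They come from RefSeq (GRCm38.p6, another build than the files' mm9), run 5′ to 3′ on the gene's strand from 250 bases before to 50 after the start, and have the matches in capitals. The promoter window of Igtp is chr11:58199306-58199605 (+), that of Irgm2 chr11:58214727-58215026 (+) and that of Irgm1 chr11:48871371-48871670 (-).
Igtp promoter: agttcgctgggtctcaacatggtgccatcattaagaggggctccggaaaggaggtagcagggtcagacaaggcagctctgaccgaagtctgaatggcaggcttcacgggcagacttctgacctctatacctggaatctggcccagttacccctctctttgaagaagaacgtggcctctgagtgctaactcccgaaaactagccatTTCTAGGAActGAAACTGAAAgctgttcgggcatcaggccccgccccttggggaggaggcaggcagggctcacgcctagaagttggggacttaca
Irgm2 promoter: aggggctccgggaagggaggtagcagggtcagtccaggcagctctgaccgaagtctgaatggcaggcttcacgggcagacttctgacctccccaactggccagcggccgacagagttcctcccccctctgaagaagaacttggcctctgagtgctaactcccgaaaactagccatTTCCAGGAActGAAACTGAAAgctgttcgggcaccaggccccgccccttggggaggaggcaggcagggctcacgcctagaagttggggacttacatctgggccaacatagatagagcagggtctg
Irgm1 promoter: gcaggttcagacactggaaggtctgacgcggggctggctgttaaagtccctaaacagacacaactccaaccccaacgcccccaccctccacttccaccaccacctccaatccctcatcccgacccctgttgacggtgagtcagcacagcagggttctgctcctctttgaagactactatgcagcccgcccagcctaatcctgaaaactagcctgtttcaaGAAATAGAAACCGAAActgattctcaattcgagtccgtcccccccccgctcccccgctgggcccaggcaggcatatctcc

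The motifs searched on both strands were GAS as TTCNNNGAA, where N is any base, and ISRE as GAAA, any 2 bases and GAAA again. GAS matched in 8.3% and ISRE in 3.44% of 32851 mouse promoters of this length, and both in 0.454%. Igtp and Irgm2 each held 1 GAS and 1 ISRE match, and without gaps 184 of 270 aligned bases (68.1%) of these promoters were identical. In Irgm1 the capitals are 2 ISRE matches that overlap each other. The window of Ifi47 did not hold these letters. Of 30 interferon-list genes with a promoter in the table, 17 held an ISRE and 6 a GAS match in any of their promoters. The shares of all promoters above are per single promoter, so the 2 measures are not alike.

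Igtp was at 54.6, 33.2 and 41.3 CPM in AEG1_MYC and at 53.1, 37.4 and 43.3 CPM in AEG1 livers, against 92.6, 72.7 and 90.1 CPM in MYC and 111, 95.6 and 67.8 CPM in WT livers. Every carrier was below every non-carrier. The difference was -1.01 ± 0.15 (edgeR adjusted p = 0.126), and near-equal in both backgrounds, with -0.98 ± 0.22 for AEG1_MYC over MYC and -1.04 ± 0.22 for AEG1 over WT. Without AEG1_MYC replicates 1 and 2 it was -1.04.

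Irgm1, a regulator of the other GTPases and of autophagy, was at 49.3, 45.0 and 69.1 CPM in AEG1_MYC and at 81.3, 79.7 and 53.4 CPM in AEG1 livers, against 140.1, 96.7 and 105 CPM in MYC and 114, 114 and 116 CPM in WT livers. Carriers and non-carriers did not overlap (-0.87 ± 0.15, edgeR adjusted p = 0.304). Ifi47 was at 17.0, 26.3 and 30.7 CPM in carriers and at 34.4, 39.8 and 49.4 CPM in non-carriers, again without overlap (-0.68 ± 0.14, edgeR adjusted p = 0.519). DESeq2 called all 3, with adjusted p of 2.17e-06 for Igtp, 0.000325 for Irgm1 and 0.0073 for Ifi47, and limma did not (adjusted p of 0.0695, 0.240 and 0.240).

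The rest of the family was looked up after these values were seen. Irgm2 was at 46.3, 59.3 and 79.7 CPM in carriers and at 75.7, 96.2 and 112 CPM in non-carriers (-0.63 ± 0.14, edgeR adjusted p = 0.596). Its groups overlapped slightly, since AEG1_MYC replicate 3 (79.7 CPM) was above MYC replicate 2 (76.9 CPM) and WT replicate 2 (75.7 CPM). Gm12250 had -1.48 ± 0.35 at 1.79 to 4.85 CPM in carriers and 3.89 to 14.3 CPM in non-carriers, and Iigp1, the most abundant, had -0.60 ± 0.19 at 305 to 657 CPM in carriers and 539 to 794 CPM in non-carriers. Gm4951 was at -0.27 ± 0.13, F830016B08Rik at 0.48 ± 0.39 and Irgq at -0.54 ± 0.29. The low members Tgtp2, Gm4841, Gm5431 and 9930111J21Rik1 had 113 to 319 reads over all libraries, with 0.02 ± 0.36, -0.31 ± 0.36, 0.03 ± 0.43 and 0.95 ± 0.45 in that order. Of these 4, only Gm4841 was below 0, and the sign of Tgtp2 and of Gm5431 turned in 7 alternatives each. Tgtp1 had 0 reads, and Tgtp1 and Tgtp2 are near-identical copies whose reads align at several places, so Tgtp2 is uncertain. Members of this family resemble each other, and reads shared between them are not in these counts.

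The interferon-response list holds 40 genes, Igtp, Irgm1, Ifi47 and Iigp1 among them, and all 40 were tested. Interferons act through JAK kinases and STAT proteins to raise many antiviral and antigen-presentation genes. All 40 had a log2 fold change below 0, against 48.6% of all genes tested, and the median was -0.55, against 0.01 for all genes. At an unadjusted p under 0.05, 18 were lower (45% of the list, against 3.77% of all genes) and 0 higher. In 3 of the 40 the groups did not overlap, and 0.133% of all genes were lower without overlap. edgeR called 0 of the 40 over all genes. Earlier results of these data had shown this list lower in AEG1 over WT, so its direction here is not independent support.

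Among signalling members, Irf9 was at 36.6, 44.5 and 59.6 CPM in carriers and at 51.1, 63.4 and 73.3 CPM in non-carriers, with AEG1_MYC replicate 3 inside the range of the non-carriers. Irf9, part of the ISRE-binding complex, had -0.46 ± 0.13, Stat2 -0.36 ± 0.13 and Irf1, induced by interferon gamma, -0.17 ± 0.11. Among effectors the antiviral Ifit1 was at 8.19, 11.2 and 28.8 CPM in carriers and at 11.7, 26.9 and 47.6 CPM in non-carriers (-1.02 ± 0.40). Its spread within each group was wider than that of the GTPases, and the groups overlapped. Oasl1 (-1.01 ± 0.33), the ubiquitin-like Isg15 (-0.99 ± 0.39) and the guanylate-binding protein Gbp6 (-0.92 ± 0.28) followed. At the other end were Oas2 at -0.01 ± 0.38, the chemokine Cxcl9 at -0.12 ± 0.30 and Gbp2 at -0.14 ± 0.21. The edgeR adjusted p of each of these was 0.607 or more.

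By liver, the median of the 40 genes was taken as log2 CPM minus the mean of the non-carriers. AEG1_MYC livers were at -0.61, -0.79 and -0.04 and AEG1 livers at -0.50, -0.55 and -0.59, against 0.32, -0.52 and 0.24 in MYC livers and 0.10, -0.51 and 0.36 in WT livers. AEG1_MYC replicate 3 was thus high for a carrier, and MYC replicate 2 and WT replicate 2 were as low as carriers, so the groups overlapped. Without AEG1_MYC replicates 1 and 2 the median was -0.44, with 38 of 40 below 0, against 6872 of 13842 among all genes. In that setting 8 of 40 were lower at an unadjusted p under 0.05, against 345 of 13842 among all genes. Leaving out single libraries gave -0.67 (without MYC replicate 2) to -0.40 (without WT replicate 3), and the clock score described below, added as a covariate, gave -0.66. Classical antigen presentation genes had a median of -0.10 (11 of 18 below 0), with H2-K1 of class I at -0.35 ± 0.18. Kupffer cell, T and NK cell and endothelial markers had medians of 0.29, 0.08 and 0.15, and their part in the interferon values was not tested. Only 11 of the 19 T and NK cell markers were tested. Their median was -0.27 without AEG1 replicate 3 and 0.57 without AEG1 replicate 2.

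**Figure D2:**
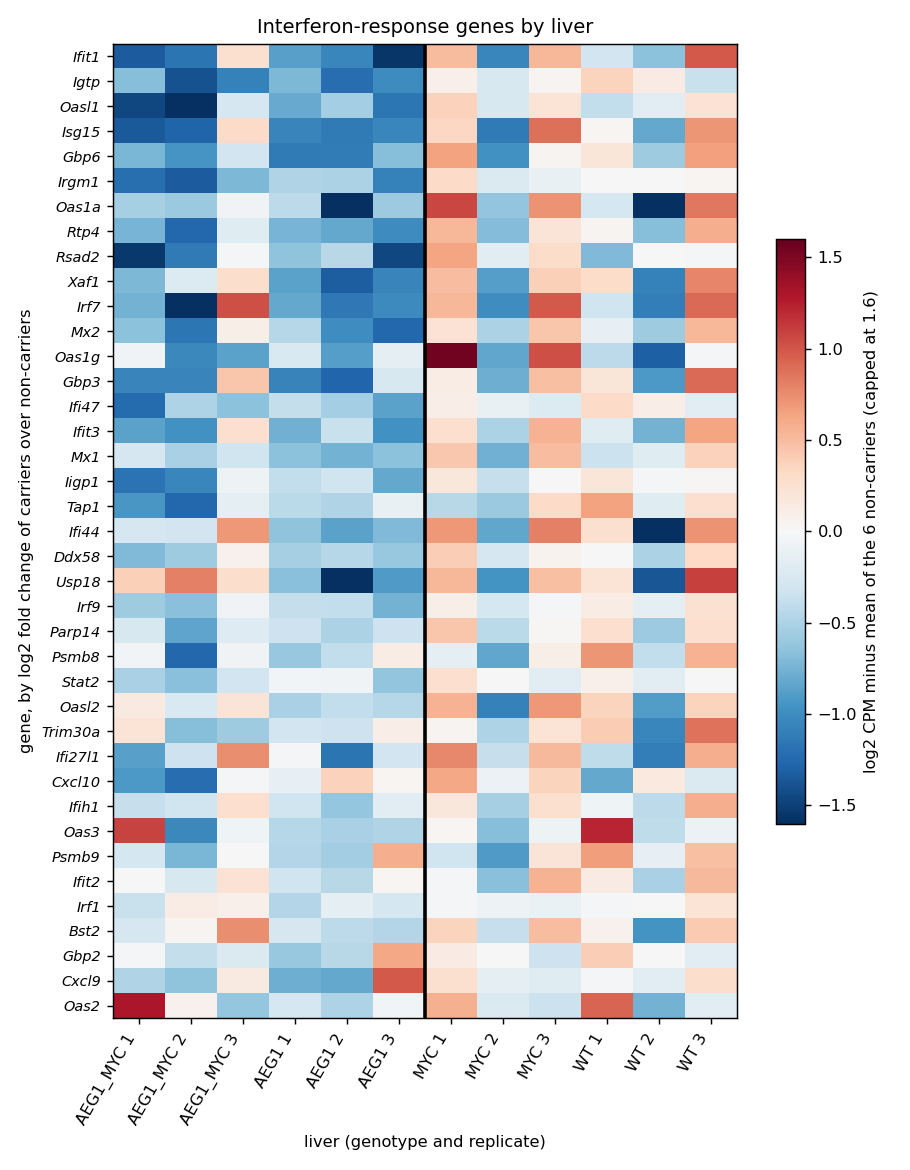
Interferon-response genes (39 of the 40, one per line, ordered by log2 fold change) in the 12 livers, with the 6 carriers left of the black line; colour is log2 CPM minus the mean of the 6 non-carriers, capped at 1.6. Igtp, Irgm1 and Ifi47 are lower in all 6 carriers than in any non-carrier, while the list's median is also low in MYC replicate 2 (-0.52) and WT replicate 2 (-0.51) and near 0 in AEG1_MYC replicate 3 (-0.04).

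Of the genes outside the list that were lower in every carrier, Trim14, an adaptor of antiviral signalling, was at 16.9, 22.5 and 26.0 CPM in carriers and at 29.0, 29.6 and 33.2 CPM in non-carriers (-0.45 ± 0.11, edgeR adjusted p = 0.596). Pml, which builds nuclear bodies and is induced by interferon, had a median of 24.4 and a highest value of 27.5 CPM in carriers, against a median of 30.3 and a lowest value of 28.3 CPM in non-carriers (-0.38 ± 0.10, edgeR adjusted p = 0.607). Neither overlapped between the groups. Parp9 (-0.51 ± 0.11) and its partner Dtx3l (-0.30 ± 0.07), which act together in interferon signalling and DNA repair, and the RNA editor Adar (-0.45 ± 0.10) had edgeR adjusted p = 0.596 each, were called by DESeq2 (adjusted p = 0.0171, 0.0419 and 0.0438), and were chosen after their values were seen. The DESeq2 calls also hold genes outside the interferon list with smaller adjusted p, among them Gpnmb (1.21e-05), Vtcn1 (0.000346), Fam129b (0.00178) and Morc4 (0.0101). Parp9, Dtx3l and Adar therefore do not show what share of the calls is tied to interferon.

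Vtcn1, the T cell inhibitory ligand B7-H4, was at 0.475, 1.87 and 2.98 CPM in carriers and at 3.12, 5.42 and 7.08 CPM in non-carriers (-1.50 ± 0.29, edgeR adjusted p = 0.519). Fam129b, a cytoplasmic adaptor, was at 8.11 to 13.9 CPM in carriers and at 17.1 to 44.2 CPM in non-carriers (-1.26 ± 0.25, edgeR adjusted p = 0.519). Neither overlapped, and in both the gap was narrower than the range of the non-carriers. Scnn1a, the alpha subunit of the epithelial sodium channel, was at 2.76 to 20.4 CPM in carriers and at 26.8 to 35.3 CPM in non-carriers (-1.07 ± 0.33, edgeR adjusted p = 0.607). AEG1_MYC replicate 2 was its lowest liver, and without it the difference was -0.84 and was called (edgeR adjusted p = 0.0421). Snapc3, of small nuclear RNA transcription, and Rbm19, of ribosome assembly, were lower by 0.37 and 0.35 on the log2 scale.

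The AEG1 difference within each MYC background uses separate libraries, so the backgrounds can be set side by side. edgeR called 0 genes in AEG1 over WT (527 at an unadjusted p under 0.05, 3.9%, and 15 called by DESeq2), and 19 genes in AEG1_MYC over MYC, all higher (0.141% of genes tested, with 15.1% at an unadjusted p under 0.05). The 19 became 405 without AEG1_MYC replicate 3, 30 without AEG1 replicate 3, and 6, 7 and 4 without MYC replicates 1, 2 and 3. With each pair fitted on its own 6 libraries, the sign was the same in 6803 of 13511 genes (50.4%), and across genes, which are not independent replicates, the correlation of fold changes was 0.08 (Pearson) and 0.03 (Spearman). Of the 100 genes with the smallest p in either comparison, 52 had the same sign in the other. The interferon list had the same sign in 32 of 40 genes (80%), with medians of -0.46 in AEG1_MYC over MYC (35 of 40 below 0, against 48.4% of all genes) and -0.63 in AEG1 over WT (37 of 40, against 50.3%), both from the 12-library fit. Only Tlr12 and Bnc2 were among the 100 smallest p of both, and of these Tlr12 had opposite signs.

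**Figure D3:**
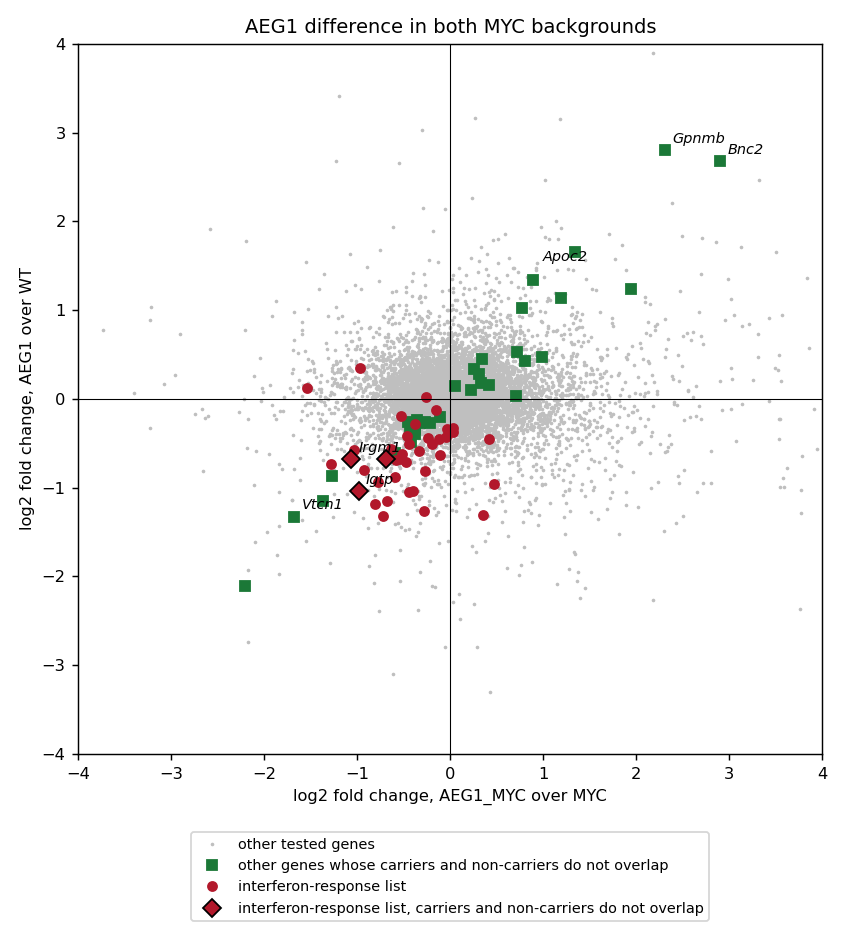
Log2 fold changes of AEG1_MYC over MYC (horizontal) and of AEG1 over WT (vertical) for the genes tested, without 32 genes beyond 4 on either axis; squares and diamonds mark genes whose carriers and non-carriers do not overlap and red symbols the interferon-response list. Most genes lie in a round cloud, interferon genes lie mainly in the lower left, and Bnc2 and Gpnmb lie far to the upper right.

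The interaction, which asks whether the AEG1 difference depends on MYC, was called in 3 genes (0.0222%, with 9.21% at an unadjusted p under 0.05). Nkd1, which is induced by Wnt signals and restrains them, was at 59.9, 84.0 and 66.2 CPM in AEG1_MYC livers, against 4.39, 5.26 and 4.32 CPM in MYC livers. In AEG1 livers it was at 5.77, 5.68 and 5.73 CPM, against 7.14, 5.86 and 5.55 CPM in WT livers. AEG1_MYC livers thus stood above all others (interaction 4.02, edgeR adjusted p = 1.93e-05), and the main effect of 1.94 ± 0.71 averages 3.91 ± 0.16 and -0.11 ± 0.15. Tlr12, a receptor for profilin of parasites, had 0.98 ± 0.15 in AEG1_MYC over MYC and -0.88 ± 0.15 in AEG1 over WT (interaction edgeR adjusted p = 0.0218), which left 0.06 ± 0.30 in the main effect. Gm106 had 4.60 ± 0.41 and -0.05 ± 0.45 (interaction edgeR adjusted p = 0.0483). Tlr12 and Gm106 were named after their values were seen.

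Noncoding RNAs of the imprinted Dlk1 region had some of the largest main effects, with unlike sizes by background. Meg3 was at 349.6, 274 and 221 CPM in AEG1_MYC and at 25.0, 20.5 and 5.63 CPM in AEG1 livers, against 6.91, 4.01 and 5.87 CPM in MYC and 0.610, 7.69 and 7.99 CPM in WT livers. AEG1_MYC livers were far above the rest, while 1 AEG1 liver lay within the non-carriers. The main effect was 3.70 ± 0.93 (edgeR adjusted p = 0.607), that of Rian 3.91 ± 0.88 (adjusted p = 0.596) and that of Mirg 4.32 ± 1.08 (adjusted p = 0.607). Mirg had only 11 reads over all non-carriers and 2 reads in its lowest carrier, so the size of its difference is uncertain. For Meg3, AEG1_MYC over MYC gave 5.65 ± 0.84 and AEG1 over WT 1.66 ± 0.73 (interaction edgeR adjusted p = 0.364). The other members of the imprinted list left its median at 0.01.

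AEG-1 and its reported partners had a median of -0.05 (3 of 11 above 0), with Snd1 at -0.22 ± 0.12 and the RISC nuclease Ago2, listed as Eif2c2, at 0.33 ± 0.13. RXR and its heterodimer partners had -0.04 (6 of 16 above 0), with the fat cell regulator Pparg at 3.65, 10.4 and 18.5 CPM in carriers and at 1.03, 4.46 and 7.49 CPM in non-carriers (1.36 ± 0.55, edgeR adjusted p = 0.607). NF-kB subunits, regulators and targets had 0.07 (15 of 25 above 0), with the inhibitor Nfkbia at 0.47 ± 0.19 and Nfkbiz at 0.49 ± 0.20. Without AEG1_MYC replicate 1 the NF-kB median was -0.01 and Nfkbiz was at 0.27. PPARA targets and fatty acid oxidation had -0.07 (15 of 33 above 0), and 0.08 without WT replicate 2. Lipogenesis and triglyceride storage had 0.07 (21 of 34 above 0), with medians of -0.05 in AEG1_MYC over MYC and 0.35 in AEG1 over WT, and 0.21 over all carriers without AEG1_MYC replicate 2. The list for cholesterol synthesis and uptake had -0.12 (5 of 24 above 0). edgeR called 0 members of any of the 40 lists in the main effect.

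The 29 pericentral and Wnt target genes had a median of 0.58, with 1.49 in AEG1_MYC over MYC and -0.28 in AEG1 over WT. Of them 25 were above 0, and 3 were higher at an unadjusted p under 0.05 (10.3%, against 4.37% of all genes). The main median was 0.26 without AEG1_MYC replicate 2 and 0.13 without replicates 1 and 2. Of the 31 xenobiotic metabolism genes 24 were above 0 (median 0.34), and 12 were higher at an unadjusted p under 0.05 (38.7%, against 4.37% of all genes). Without AEG1_MYC replicates 1 and 2 only 1 was higher at that threshold, against 318 of 13842 among all genes. The flavin monooxygenase Fmo2 was at 9.21, 21.9 and 71.6 CPM in carriers and at 9.02, 9.28 and 12.8 CPM in non-carriers, with 2 carriers (AEG1_MYC replicate 3 and AEG1 replicate 1) inside the range of the non-carriers (1.52 ± 0.45, edgeR adjusted p = 0.607). Endoplasmic reticulum chaperones and stress genes had a median of -0.29 (6 of 25 above 0), with the chaperones Hspa5 at -0.61 ± 0.28 and Calr at -0.34 ± 0.15 and the stress factor Ddit3 at 0.52 ± 0.21. That list's median was -0.51 in AEG1_MYC over MYC and -0.02 in AEG1 over WT, and over all carriers -0.12 without AEG1_MYC replicates 1 and 2.

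**Figure D4:**
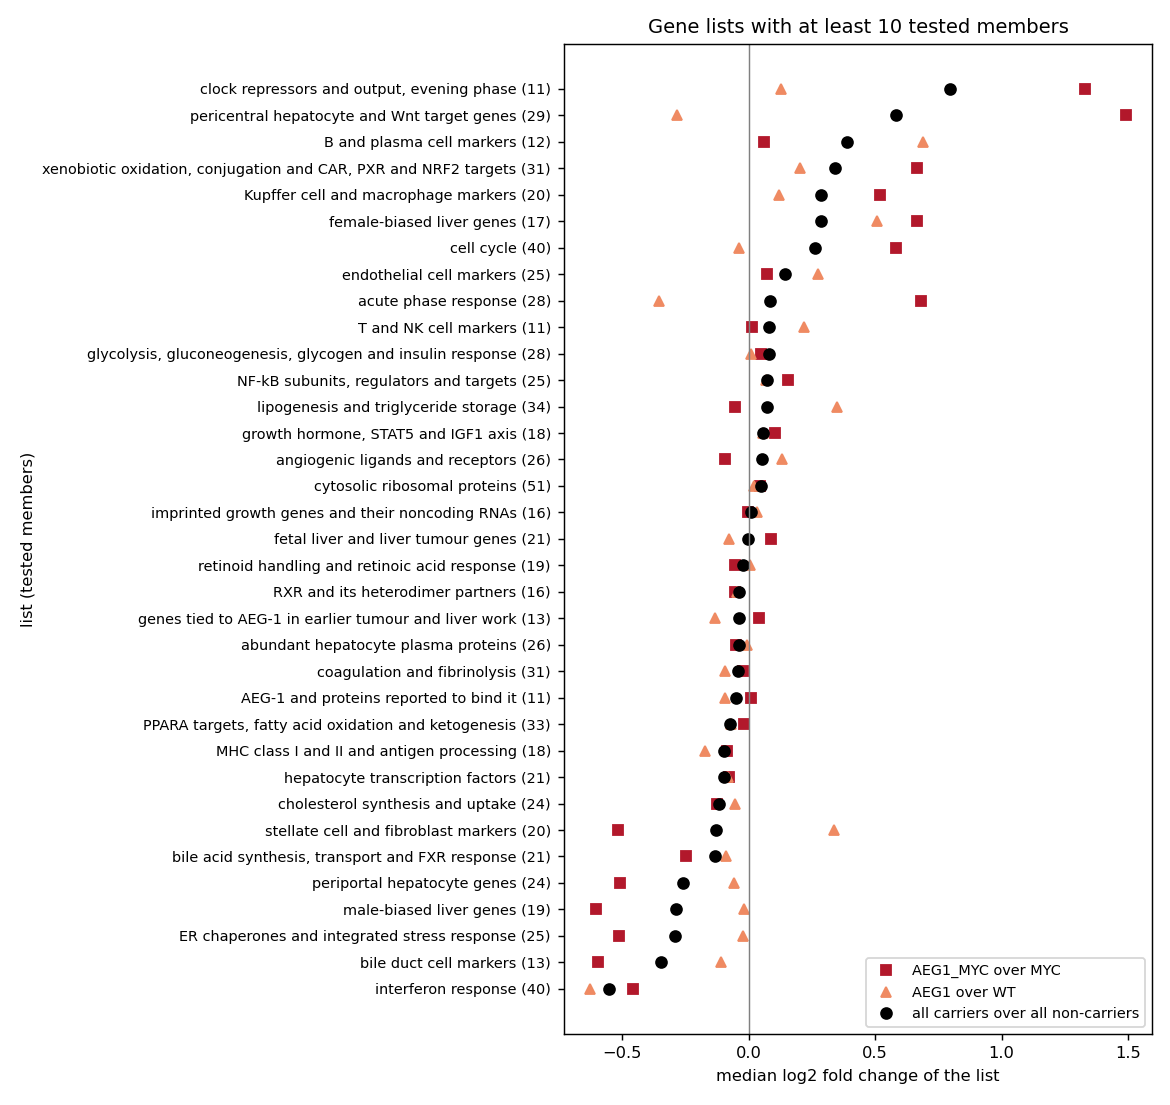
Median log2 fold change of each list with at least 10 tested members (35 lists, members in brackets), for AEG1_MYC over MYC, AEG1 over WT and all carriers over all non-carriers. The interferon list has the lowest main median (-0.55) with both backgrounds on the same side, while pericentral genes (0.58) lie at 1.49 and -0.28 in the 2 backgrounds.

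Evening-phase clock genes had a median of 0.80 (11 of 11 above 0), with Per2 at 36.7, 53.2 and 84.2 CPM in carriers and at 16.4, 28.3 and 51.4 CPM in non-carriers (0.92 ± 0.29, edgeR adjusted p = 0.607). The median was 1.33 in AEG1_MYC over MYC (0 of 11 below 0) and 0.13 in AEG1 over WT (5 of 11 below 0). Morning-phase clock genes had -0.34, with -1.24 in AEG1_MYC over MYC (5 of 5 below 0) and 0.49 in AEG1 over WT (0 of 5 below 0). The evening-phase median was 0.32 without AEG1 replicate 3 and 1.28 without MYC replicate 3. A clock score, the mean centred log2 CPM of evening-phase minus that of morning-phase genes, was -3.50 to 3.42 (median 2.10) in carriers and -3.67 to 2.32 (median -1.11) in non-carriers. Times of collection were not given, so a difference in clock phase at collection and one in clock gene levels cannot be told apart. With this score as a covariate edgeR again called 0 genes, with Bnc2 at an adjusted p of 0.249. The median over cell cycle genes was 0.26 (35 of 40 above 0), with cyclin E2, Ccne2, at 1.09, 1.39 and 2.05 CPM in carriers and at 0.610, 0.906 and 1.16 CPM in non-carriers (0.68 ± 0.20, edgeR adjusted p = 0.607). The list's median was 0.58 in AEG1_MYC over MYC (4 of 40 below 0) and -0.04 in AEG1 over WT (22 of 40 below 0). The median over all carriers was 0.14 without AEG1_MYC replicate 2 and 0.06 without replicates 1 and 2.

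Only 3 of 12 neutrophil markers, S100a8, S100a9 and Csf3r, passed the filter on low counts, with a median of 1.53, which was -0.66 without AEG1_MYC replicate 1. Their medians were 3.59 in AEG1_MYC over MYC and -0.99 in AEG1 over WT, and the list summed to 1.48 to 54.0 CPM in carriers and 1.62 to 6.59 CPM in non-carriers. B and plasma cell markers had 0.39 (12 of 12 above 0), at 6.16 to 22.9 CPM summed in carriers and 8.84 to 10.8 CPM in non-carriers, and 0.17 without AEG1 replicate 3. Among carriers, AEG1_MYC replicate 3 (6.16 CPM) and AEG1 replicate 1 (6.89 CPM) were below every non-carrier. By background the median was 0.06 in AEG1_MYC over MYC (9 of 12 above 0) and 0.69 in AEG1 over WT (12 of 12 above 0). Endothelial markers had 0.15 (21 of 25 above 0), with Lyve1 at 0.91 ± 0.34, and 0.09 without WT replicate 3. Bile duct markers had -0.35 (1 of 13 above 0, 4 lower at an unadjusted p under 0.05, 30.8% against 3.77% of all genes), and -0.15 without MYC replicate 3. Without AEG1_MYC replicates 1 and 2 the median was -0.29, and 1 of 13 was lower at that threshold (345 of 13842 among all genes). By background it was -0.60 in AEG1_MYC over MYC (11 of 13 below 0) and -0.11 in AEG1 over WT (8 of 13 below 0). The summed level overlapped, at 55.9 to 107 CPM in carriers and 74.3 to 127 CPM in non-carriers. The keratin Krt19 was at 0.564, 0.912 and 1.75 CPM in carriers and at 0.488, 1.52 and 8.69 CPM in non-carriers (-1.46 ± 0.62, edgeR adjusted p = 0.612), so the groups overlapped, and the difference was -0.77 without MYC replicate 3. Only MYC replicate 3 (8.69 CPM), WT replicate 3 (4.06 CPM) and MYC replicate 1 (1.93 CPM) were above all carriers.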

How the data were processed

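The authors deposited a table of raw read counts per gene for each of 12 mouse liver libraries. The submitters' processing notes name CASAVA 1.8.2, TopHat2 2.0.7, HTSeq and the build mm9; the HTSeq version, annotation and strand setting are not given in the sources used here. Alignments at several places, 46.5% to 58.0% of unique and multiple entries together, are outside the gene counts, which limits genes with near-identical copies. The 5 summary lines were dropped, 13511 of 22609 genes passed edgeR's filterByExpr, and 4439 genes had 0 counts throughout. No 2 libraries held identical counts.

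The test was edgeR 4.0.16 in R 4.3.3 (TMM factors 0.914 to 1.19, robust quasi-likelihood F test, two-sided). AEG1 and MYC status were the terms of the main effect, and 1 coefficient per genotype gave the comparisons within a MYC background. P values were adjusted over all tested genes (Benjamini-Hochberg) and called under 0.05. The median SE of a main effect was 0.150. Alternatives were DESeq2 1.42.0, limma 3.58.1, other scalings, filters and terms, and leaving out libraries. Only the edgeR main-effect fit was tested on simulated data, and the other fits and tools were not. CPM were computed over TMM-scaled library sizes.

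The named genes are, where the mean CPM reached 1, the 12 largest differences in each direction among called and among non-overlapping genes, the 3 smallest p of each of 40 lists, and Mtdh, Myc, Alb and Bnc2. Results of a few genes are not reported here. Further family and list members were added after their values were seen. The members, lists and rule were chosen with earlier results of these data known. Replicate numbers follow accession order. For the comparisons within a MYC background and the interaction, p values measure the spread between these mice. The main-effect model holds no interaction, so its SE and p values also take in any difference of the AEG1 effect between MYC backgrounds. For Nkd1 the SE was 0.71 in the main effect, against 0.16 in AEG1_MYC over MYC and 0.15 in AEG1 over WT. Genes carry no mm9 coordinates, since the reference used here is another build (GRCm38.p6), and the promoter windows carry positions in that build; of the 22609 symbols, 22370 matched its table.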

Additional observations from a re-analysis of the deposited data

Results flagged for a closer look

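Of 300 groups of 6 livers (150 named genes, carriers and non-carriers), 26 (8.67%) held 1 liver far from the other 5 on the log2 CPM scale, where chance marks about 1 in 20. In 14 of the 26 that liver was AEG1_MYC replicate 2. It was high in Becn1 (127 CPM, the other carriers 63.3 to 81.5), Arpp19 (90.3 CPM), the fatty acid desaturase Scd2 (67.4 CPM, the others 7.03 to 12.4), the vessel ligands Angpt2 (14.3 CPM, the others 0.963 to 1.86) and Dll4 (14.9 CPM), and Vil1 of microvilli (6.11 CPM). It was low in Vtcn1 (0.475 CPM), Scnn1a (2.76 CPM, the others 14.1 to 20.4), the fibrinogen chain Fgb (1661 CPM, the others 3419 to 4781), Serpina1e (22.6 CPM), the glucose-releasing enzyme G6pc (78.3 CPM, the others 220.4 to 393), and the Y-linked genes Eif2s3y (1.69 CPM, the others 56.7 to 74.7), Uty (1.42 CPM) and Ddx3y (3.95 CPM).

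AEG1_MYC replicate 1 was high in the iron carrier Lcn2 (1212 CPM, the other carriers 3.74 to 19.6) and in the neutrophil genes S100a9 (24.1 CPM) and S100a8 (23.4 CPM). Among non-carriers, WT replicate 1 was low in Hnmt (37.6 CPM) and Meg3 (0.610 CPM) and high in Foxo1 (56.4 CPM) and 4921530D09Rik (0.183 CPM). WT replicate 2 was high in Fmo2 (12.8 CPM) and low in Bub1 (0.0765 CPM), and WT replicate 3 was high in Alas2 (364 CPM). MYC replicate 2 was low in Iigp1 (539 CPM, the other non-carriers 689 to 794). The AEG1 difference of Nkd1 depended on the MYC background, with an interaction of 4.02 on the log2 scale (edgeR adjusted p = 1.93e-05).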

How the results depend on the processing

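The main-effect count of 0 genes was also 0 with RLE and upper-quartile factors, a CPM filter, no robust step and the clock score. It was 1 (Bnc2) with no MYC covariate and with no filter, 6 (Nkd1, Rian, Bnc2, Gm106, Ces2c and Apoc2) with the AEG1 contrast averaged over 4 genotype coefficients, 40 with DESeq2 (20 higher), 2 with limma and 1 (Apoc2) without AEG1_MYC replicates 1 and 2; leaving out single libraries gave 0 to 4. The smallest adjusted p was 0.249 with the clock score, and that of Bnc2 ranged from 3.01e-12 (DESeq2) to 0.368 (edgeR without MYC replicate 1). AEG1 over WT stayed at 0 except with DESeq2 (15). AEG1_MYC over MYC (19) moved to 431 with DESeq2 (332 higher), 5 with the clock score and 2 without AEG1_MYC replicates 1 and 2, and to 4 to 405 without single libraries, the last without AEG1_MYC replicate 3. Named genes called for the interaction (1, Nkd1) were 8 with DESeq2 and 1 to 3 without single libraries. The 36 non-overlapping genes became 115 without AEG1_MYC replicates 1 and 2 and 52 to 122 without single libraries, since fewer livers overlap less often. Unlike the main-effect model, the averaged contrast keeps differences of the AEG1 effect between MYC backgrounds out of the unexplained spread. With it the edgeR adjusted p of Nkd1 went from 0.607 to 3.43e-05. How far this accounts for the 6 calls was not tested, nor was the cause of the other moves. Over the 150 named genes, 3349 alternative values kept their sign and side of the threshold, 42 newly passed it and 46 turned sign.

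With limma Alas2 turned to 0.000941, Csf3r to -0.207, Gm5431 to -0.179, S100a8 to -0.0390 and Vil1 to -0.617. With the clock score Csf3r turned to -0.00716, Gm129 to -0.0512, Gm5431 to -0.367, Klf1 to -0.0112, S100a8 to -0.0714 and Tgtp2 to -0.243. Csf3r was -0.00135 averaged over backgrounds and -0.00565 with no filter. Without AEG1_MYC replicates 1 and 2, Alas2 was 0.0291, Csf3r -0.607, Eif2s3y 0.0355, Gm5431 -0.313, S100a8 -1.32, S100a9 -1.08, Tgtp2 -0.0209 and Vil1 -1.27. Without single libraries the ranges that crossed 0 were -0.0382 to 0.87 for Col1a1, -0.66 to 0.33 for Csf3r, -0.50 to 0.00278 for Ddx3y, -0.0230 to 0.18 for Fabp2, -0.26 to 0.27 for Gm5431, -0.0678 to 0.0102 for Mtdh, -0.88 to 2.87 for S100a8, -0.46 to 2.56 for S100a9, -0.20 to 0.36 for Tgtp2, -0.42 to 0.0145 for Uty and -1.15 to 1.20 for Vil1. No paired analysis was possible because the labels give no replicate numbers shared between genotypes. Depth limits genes under about 1 CPM most.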

Other observations

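By chromosome, in RefSeq's GRCm38.p6 table, the genes whose carriers and non-carriers did not overlap were 7 of 1109 tested on chromosome 11 (0.631%) and 6 of 840 on chromosome 4 (0.714%), against 36 of 13426 placed genes (0.268%). Those on chromosome 4 were Bnc2, higher in carriers, and Smu1, Trim14, Snapc3, 5730409E04Rik and Dnajc16, lower in carriers; those on chromosome 11 include Igtp, Irgm1 and Ifi47. These genes were named after their values were seen. Ptgds, prostaglandin D synthase, is a low gene among the 36 outside the rule, at 0.0594 to 0.931 CPM in carriers and 1.20 to 2.11 CPM in non-carriers (-2.16 ± 0.54, edgeR adjusted p = 0.607), and DESeq2 called it (adjusted p = 0.0364).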
